A study of Homo sapiens with 9 samples.

Results

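The 10 genes described here encode the core of transforming growth factor beta (TGF-beta) signalling: the ligands TGFB1 and TGFB2, the receptors TGFBR1 and TGFBR2, the signal-carrying SMAD2, SMAD3 and SMAD4, the inhibitory SMAD6 and SMAD7, and the co-repressor SKIL. They were proposed with earlier results of these data known and taken by gene name. Each name matched 1 row among the 58735 named rows of the deposited count and FPKM tables. All 10 passed the filter on low counts, which kept 15242 genes for testing. RNA-seq of total RNA was made from 6 libraries labelled sgL1 and 3 labelled sgCtrl, all of MDA-MB-231, a long-established breast tumour line that lacks hormone receptors and HER2 and has mesenchymal features. By the series title every culture, control guide included, was under hypoxia for 6 h. UFL1 and UFM1 are the targets named in the design text, and no library labelled for UFM1 was analysed here; sgL1 was read as a guide against UFL1, the ligase that attaches the small protein UFM1 to its substrates, and sgCtrl as a control guide, though the labels do not spell this out. The title speaks of a knockdown and the design text of a knockout, and the labels do not say how many guides or clones stand behind the libraries, nor whether each had a culture of its own. The p-values therefore reflect only how much these libraries vary, which could be technical variation.

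TGF-beta is secreted in a latent form bound to matrix proteins and is released by integrins, proteases or thrombospondin. The free ligand brings TGFBR2 together with TGFBR1, whose kinase phosphorylates SMAD2 and SMAD3; these join SMAD4 and enter the nucleus, where they switch genes on or off. Among the genes switched on are SMAD7, which blocks the receptor and recruits ubiquitin ligases to it, and SKIL, which encodes the co-repressor SnoN, so that the pathway dampens itself. In normal breast epithelium TGF-beta is known as a growth inhibitor, and in invasive lines such as MDA-MB-231 for its part in motility and bone metastasis.

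Libraries held 15420073 to 17038409 counts on named genes in sgL1 and 15622230 to 15868490 in sgCtrl. Levels are CPM, counts scaled to a common library total with TMM factors, and means carry the SD over n = 6 libraries for sgL1 and n = 3 for sgCtrl throughout. UFL1 measured 15.2, 12.9, 12.9, 22.8, 20.02 and 21.2 CPM in sgL1 libraries 1 to 6, against 27.4, 25.3 and 25.3 CPM in sgCtrl. This gave 17.5 ± 4.39 CPM in sgL1 and 26.0 ± 1.17 CPM in sgCtrl, with every sgL1 library below every sgCtrl library; the log2 fold change was -0.57 (edgeR adjusted p = 0.126). Each set of 3 sgL1 libraries passed on its own, with -0.93 in libraries 1-3 (edgeR adjusted p = 1.24e-08) and -0.28 in libraries 4-6 (edgeR adjusted p = 0.0145). Over all 6, limma-voom called UFL1 lower (adjusted p = 0.0305) and DESeq2 did not (adjusted p = 0.0631). In 17 of 23 alternatives UFL1 stayed uncalled. Members are also given for each set of 3, a division chosen with these UFL1 levels known. UFM1 gave 0.17 (edgeR adjusted p = 0.0862). Of 6 genes listed as typical of such a line, VIM, CD44, CAV1, MSN and AXL were abundant and SPARC was low (at most 0.972 CPM). On the log2 scale CD44 rose by 0.34 in sgL1 (edgeR adjusted p = 2.71e-08). CAV1 fell by 0.32 and AXL by 0.25 (edgeR adjusted p = 5.53e-06 and 3.12e-06), and VIM and MSN did not pass (0.0894 and 0.259). Of 7 luminal markers listed as absent from such a line, ESR1 and CDH1 stayed at or below 0.621 CPM. The other 5 were detected: KRT19 averaged 101.4 CPM in sgL1 and 99.6 CPM in sgCtrl, EPCAM 13.4 CPM in sgL1 and 14.7 CPM in sgCtrl, GATA3 4.08 CPM in sgL1 and 4.04 CPM in sgCtrl, and PGR 1.05 CPM in sgL1 and 1.14 CPM in sgCtrl. FOXA1 averaged 22.8 CPM in sgL1 and 16.6 CPM in sgCtrl and rose by 0.46 on the log2 scale (edgeR adjusted p = 3.55e-04). Summed markers of fibroblasts were 15.8 to 20.6 CPM in sgL1 and 11.5 to 14.5 CPM in sgCtrl, with LUM and COL1A2 at 0 in all 9 libraries. Endothelial markers summed to 13.6 to 15.6 CPM in sgL1 and 9.85 to 12.9 CPM in sgCtrl, with CDH5 at most 0.128 CPM, and leukocyte markers to 1.51 to 3.07 CPM in sgL1 and 1.60 to 2.51 CPM in sgCtrl, with CD3E at 0. PDGFRB (8.09 CPM in sgL1, 5.08 CPM in sgCtrl) and PECAM1 (9.29 CPM in sgL1, 5.51 CPM in sgCtrl) carried most of the fibroblast and endothelial differences. The part of these markers and of FOXA1, CD44, CAV1 and AXL in the results was not tested. Mitochondrial transcripts took 3.07% to 3.67% of the counts in sgL1 and 3.55% to 3.67% in sgCtrl.

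Across the pathway the ligand TGFB2 was lower in sgL1 and the inhibitor SMAD7 was 1.92-fold higher, while the receptor TGFBR1 and the co-repressor SKIL were slightly higher. Of the 10 members, 3 rose and 1 fell by edgeR's quasi-likelihood F test (a gene was called at a Benjamini-Hochberg p under 0.05 over all 15242 genes). The same test called 9.49% of all genes (1447), 5.52% as higher and 3.98% as lower in sgL1. Without sgCtrl 1 only TGFB2 and SMAD7 passed, which makes 2 members called in place of 4, and 948 genes were called in all. Without sgCtrl 2 there were 3 members and 901 genes. The members' median log2 fold change was 0.15, beside 0.002 over all genes. Because the members were proposed with earlier results known, these contrasts with all genes are not independent of the data. The levels of 5 members did not overlap between the groups, namely TGFB1, TGFB2, TGFBR1, TGFBR2 and SMAD7; 14.0% of all tested genes had no overlap. In such bulk libraries fewer cells with a transcript and less of it per cell cannot be told apart.

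**Figure D1:**
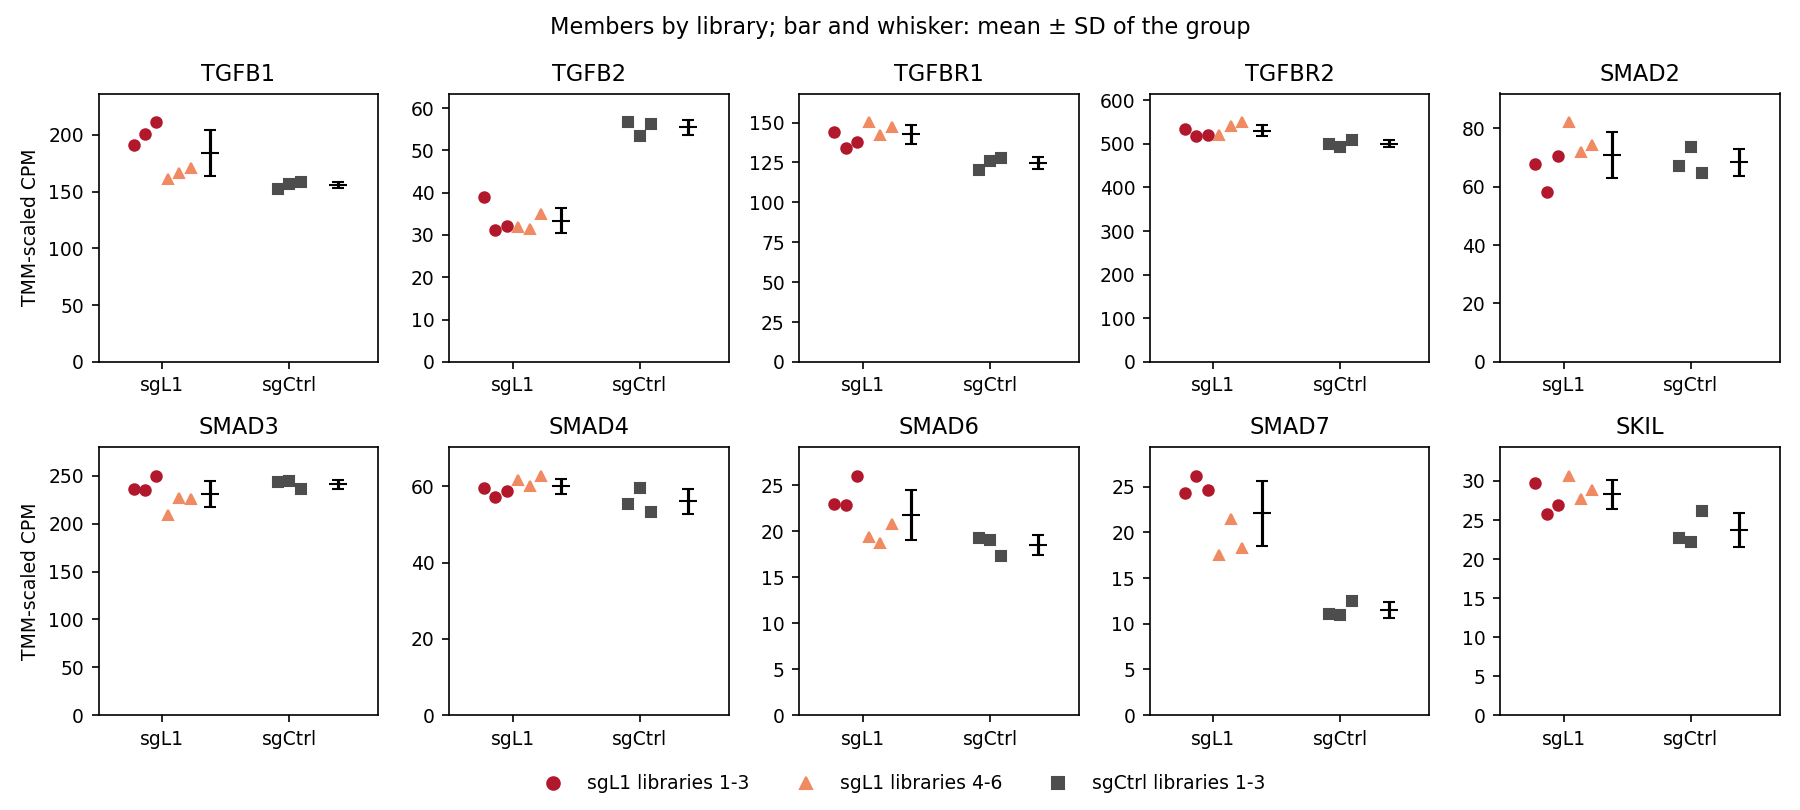
Level of each member in every library (TMM-scaled CPM, axes from 0), with sgL1 at the left (circles, libraries 1-3; triangles, libraries 4-6), sgCtrl at the right (squares), and the mean ± SD of each group beside its points. TGFB2 lies lower in all 6 sgL1 libraries and SMAD7 lies higher in all 6, while SMAD2, SMAD3, SMAD4, SMAD6 and SKIL overlap between the groups.

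Of the ligands, TGFB2 was lower in sgL1 and TGFB1 did not pass the test over all 6 libraries. TGFB2 (chromosome 1, 218346235 to 218444619, plus strand, GRCh38) encodes an isoform that needs the co-receptor betaglycan to bind TGFBR2 well. It measured 39.0, 31.2, 32.2, 31.8, 31.4 and 34.9 CPM in sgL1 libraries 1 to 6, against 56.6, 53.4 and 56.3 CPM in sgCtrl. The highest sgL1 library, library 1, thus stayed under the lowest sgCtrl library. TGFB2 fell by 0.73 on the log2 scale (SE 0.07, 95% interval -0.87 to -0.59, edgeR adjusted p = 7.88e-09), to 33.4 ± 3.04 CPM in sgL1, against 55.4 ± 1.79 CPM in sgCtrl. Both sets of sgL1 libraries, which share the control libraries, passed on their own, with -0.70 in 1-3 and -0.76 in 4-6. A noncoding transcript, TGFB2-OT1, shares 1371 exonic bases with TGFB2 on the same strand and was listed at 0 in all 9 libraries. How counting treated reads over shared bases is not given, so this 0 does not show that TGFB2 lost no reads there.

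TGFB1 (chromosome 19, 41301587 to 41353911, minus strand), the isoform most often studied in tumours, measured 191.3, 200.4 and 211.1 CPM in sgL1 libraries 1-3, 161.2, 166.6 and 171.2 CPM in libraries 4-6, and 152.5, 156.6 and 158.1 CPM in sgCtrl. The 3 sets of values did not overlap, with libraries 1-3 the highest. The log2 fold change was 0.24 (SE 0.08, 95% interval 0.06 to 0.41, edgeR adjusted p = 0.0973). Taken alone, libraries 1-3 passed with 0.37 (adjusted p = 1.47e-07), where the test called 15.2% of all genes, and libraries 4-6 gave 0.10 without passing (adjusted p = 0.122), where it called 12.3%; whether the sets differ was not tested. DESeq2 called TGFB1 higher in sgL1 (adjusted p = 0.0173), as did edgeR without the filter on low counts (adjusted p = 3.60e-05). It was also called by edgeR without sgL1 3, 4 or 5 (adjusted p up to 0.0495). With the replicate number as a block it passed too (edgeR adjusted p = 8.22e-07). That fit rests on libraries 1-3 of each group, so it repeats the result of libraries 1-3 alone. In 16 of 23 alternatives TGFB1 stayed uncalled. The 3' region overlaps HNRNPUL1 on the other strand by 215 exonic bases, and it is not given whether counting used the strand; HNRNPUL1 gave a log2 fold change of -0.01.

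The third ligand, TGFB3, was scarce, at 3.64 ± 0.766 CPM in sgL1 and 3.21 ± 0.686 CPM in sgCtrl, and did not pass the test (log2 fold change 0.18, edgeR adjusted p = 0.684). On the length-corrected FPKM scale TGFB2 made up 11.2%, 8.85%, 8.64%, 10.9%, 10.4% and 11.2% of the summed FPKM of TGFB1, TGFB2 and TGFB3 in sgL1 libraries 1 to 6, against 18.8%, 17.4% and 18.1% in sgCtrl. TGFB2 was thus a smaller share of the ligand transcripts in every sgL1 library. These shares combine members that were tested singly, and no test was made of them.

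The sequence before the start of TGFB2 is shown because this was the member with the smallest adjusted p. It covers the 250 bases up to the RefSeq start (chr1:218345086-218345335, plus strand, GRCh38.p14); GENCODE release 29 places the start of the gene 899 bases further downstream, and none of these bases is exonic there. Capitals mark matches, on either strand, to the SMAD element CAGAC, the hypoxia response core ACGTG and the TEAD element GGAATG.
TGFB2: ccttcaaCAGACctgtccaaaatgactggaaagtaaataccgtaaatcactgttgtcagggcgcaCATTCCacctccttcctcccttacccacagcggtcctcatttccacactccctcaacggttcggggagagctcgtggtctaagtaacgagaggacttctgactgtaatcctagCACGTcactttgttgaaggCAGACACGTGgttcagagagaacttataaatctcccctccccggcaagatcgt
The window holds 2 CAGAC matches, 3 ACGTG matches (a palindromic pair among them, which also shares 1 base with the second CAGAC) and 1 GGAATG match. Among 35116 RefSeq windows of the same length, 38.0% hold CAGAC, 18.5% hold ACGTG and 11.9% hold GGAATG. The window before TGFB1 held none of these 3 and 1 match to GCGTG, the other form of the hypoxia core, which 32.2% of windows hold. Matches of this length are common and describe the letters only.

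TGFBR1 was slightly higher in sgL1, and TGFBR2, the most abundant of the 10 members per length, did not pass the test. TGFBR1 (chromosome 9, 99104038 to 99154192, plus strand), the signalling kinase also known as ALK5, measured 144.0, 134.0, 137.8, 150.2, 142.1 and 147.5 CPM in sgL1 libraries 1 to 6, against 120.2, 125.9 and 127.8 CPM in sgCtrl. All 6 sgL1 libraries lay above the sgCtrl libraries. It rose by 0.19 on the log2 scale (SE 0.05, edgeR adjusted p = 0.00497), a 1.14-fold change. The call was lost without sgCtrl 1 (log2 fold change 0.17, edgeR adjusted p = 0.0751). Each set passed on its own, with 0.15 in libraries 1-3 (edgeR adjusted p = 0.0186) and 0.23 in libraries 4-6 (edgeR adjusted p = 4.00e-05).

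TGFBR2 (chromosome 3, 30606502 to 30694142, plus strand), the ligand-binding kinase that activates TGFBR1, measured 533.6, 516.8, 520.1, 520.3, 541.1 and 549.3 CPM in sgL1, against 500.0, 492.6 and 507.8 CPM in sgCtrl. Every sgL1 library was higher than every sgCtrl library, yet the log2 fold change of 0.08 (SE 0.04, 95% interval 0.01 to 0.16) did not pass the test (edgeR adjusted p = 0.158). In sgL1 libraries 4-6 alone it did (0.10, edgeR adjusted p = 0.0281), and in libraries 1-3 alone it did not (0.06, edgeR adjusted p = 0.212), with the difference between the sets not tested. The ratio of TGFBR2 to TGFBR1 in FPKM was 5.42 ± 0.201 in sgL1 and 5.84 ± 0.187 in sgCtrl.

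None of the signal-carrying SMADs passed the test. SMAD2 (chromosome 18, 47808957 to 47931146, minus strand) and SMAD3 (chromosome 15, 67063763 to 67195195, plus strand) are the receptor-activated SMADs of TGF-beta and activin. SMAD2 measured 67.9, 58.2, 70.4, 82.0, 71.9 and 74.3 CPM in sgL1, against 67.0, 73.6 and 64.6 CPM in sgCtrl, so that the control values lay inside the sgL1 range. Its log2 fold change was 0.05 (95% interval -0.12 to 0.22, edgeR adjusted p = 0.788), and it was -0.06 in sgL1 libraries 1-3 and 0.15 in libraries 4-6, neither of which passed (edgeR adjusted p = 0.591 and 0.0715).

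SMAD3 measured 236.5, 235.0, 250.4, 209.6, 227.3 and 225.4 CPM in sgL1, against 243.7, 244.3 and 236.0 CPM in sgCtrl. Libraries 4-6 of sgL1 were the lowest 3 of the 9. Its log2 fold change over all 6 was -0.07 (95% interval -0.16 to 0.03, edgeR adjusted p = 0.450). The fit of libraries 4-6 gave -0.13 and passed (adjusted p = 0.0170), that of libraries 1-3 gave -0.005 (adjusted p = 0.952), and the difference between the sets was not tested. An antisense transcript, AC087482.1, shares 182 exonic bases with SMAD3 and had 133 counts over the 9 libraries together.

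SMAD4 (chromosome 18, 51028394 to 51085045, plus strand), the shared partner of the activated SMADs, measured 59.7, 57.3, 58.7, 61.7, 60.1 and 62.9 CPM in sgL1, against 55.5, 59.5 and 53.2 CPM in sgCtrl. The ranges overlapped through sgCtrl 2, which lay above 2 of the sgL1 libraries. Its log2 fold change was 0.10 (95% interval -0.01 to 0.21, edgeR adjusted p = 0.307), and neither set passed on its own, with 0.06 in libraries 1-3 and 0.13 in libraries 4-6 (edgeR adjusted p = 0.564 and 0.147). A gene annotated on the same strand, AC091551.1, shares 967 exonic bases with SMAD4 and was listed at 0 in all 9 libraries. As for TGFB2, the treatment of reads over shared bases is not given.

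SMAD7 showed the largest change of the 10. The gene (chromosome 18, 48919853 to 48952052, minus strand) encodes the inhibitory SMAD that competes with SMAD2 and SMAD3 at TGFBR1. It measured 24.4, 26.2 and 24.6 CPM in sgL1 libraries 1-3, 17.5, 21.5 and 18.3 CPM in libraries 4-6, and 11.0, 10.9 and 12.5 CPM in sgCtrl. These came from raw counts of 286 to 422 in sgL1 and of 173, 174 and 195 in sgCtrl. The 3 sets of values did not overlap, and sgL1 libraries 1-3 were the highest. SMAD7 rose 1.92-fold, a log2 fold change of 0.94 (SE 0.12, 95% interval 0.69 to 1.19, edgeR adjusted p = 7.99e-06). Each set passed on its own, with 1.13 in libraries 1-3 (edgeR adjusted p = 3.82e-10) and 0.73 in libraries 4-6 (edgeR adjusted p = 4.95e-07).

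SMAD6 (chromosome 15, 66702228 to 66782848, plus strand), the inhibitory SMAD that acts mainly on bone morphogenetic protein (BMP) signalling, measured 23.0, 22.8 and 26.0 CPM in sgL1 libraries 1-3, 19.4, 18.7 and 20.8 CPM in libraries 4-6, and 19.3, 19.1 and 17.3 CPM in sgCtrl. Library 5 of sgL1 lay within the sgCtrl range and the other 5 above it. The log2 fold change was 0.23 (SE 0.09, 95% interval 0.04 to 0.43, edgeR adjusted p = 0.137). Libraries 1-3 alone passed (0.37, edgeR adjusted p = 0.00469) and libraries 4-6 alone did not (0.08, edgeR adjusted p = 0.659); the difference between the sets was not tested. The FPKM of SMAD7 was 1.73 ± 0.209 times that of SMAD6 in sgL1 and 1.06 ± 0.147 times in sgCtrl.

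SKIL (chromosome 3, 170357678 to 170396835, plus strand) encodes SnoN, which binds SMAD complexes on DNA and holds their targets silent. It measured 29.8, 25.8, 26.9, 30.7, 27.8 and 28.8 CPM in sgL1, against 22.7, 22.2 and 26.2 CPM in sgCtrl. The groups overlapped, since sgCtrl 3 lay above sgL1 2. SKIL rose by 0.26 on the log2 scale (SE 0.08, edgeR adjusted p = 0.0371). This call was lost when sgL1 1, 4, 5 or 6, or sgCtrl 1 or 2, was left out (edgeR adjusted p up to 0.219), and on the FPKM scale (limma adjusted p = 0.0894 for log2(FPKM + 1)). Libraries 4-6 passed on their own (0.30, edgeR adjusted p = 0.00798), libraries 1-3 did not (0.21, edgeR adjusted p = 0.0999), and the difference between the sets was not tested. The related co-repressor SKI, at 192.3 ± 7.93 CPM in sgL1 and 187.5 ± 4.18 CPM in sgCtrl, gave 0.04 (edgeR adjusted p = 0.701) and is named here after its value was seen.

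**Figure D2:**
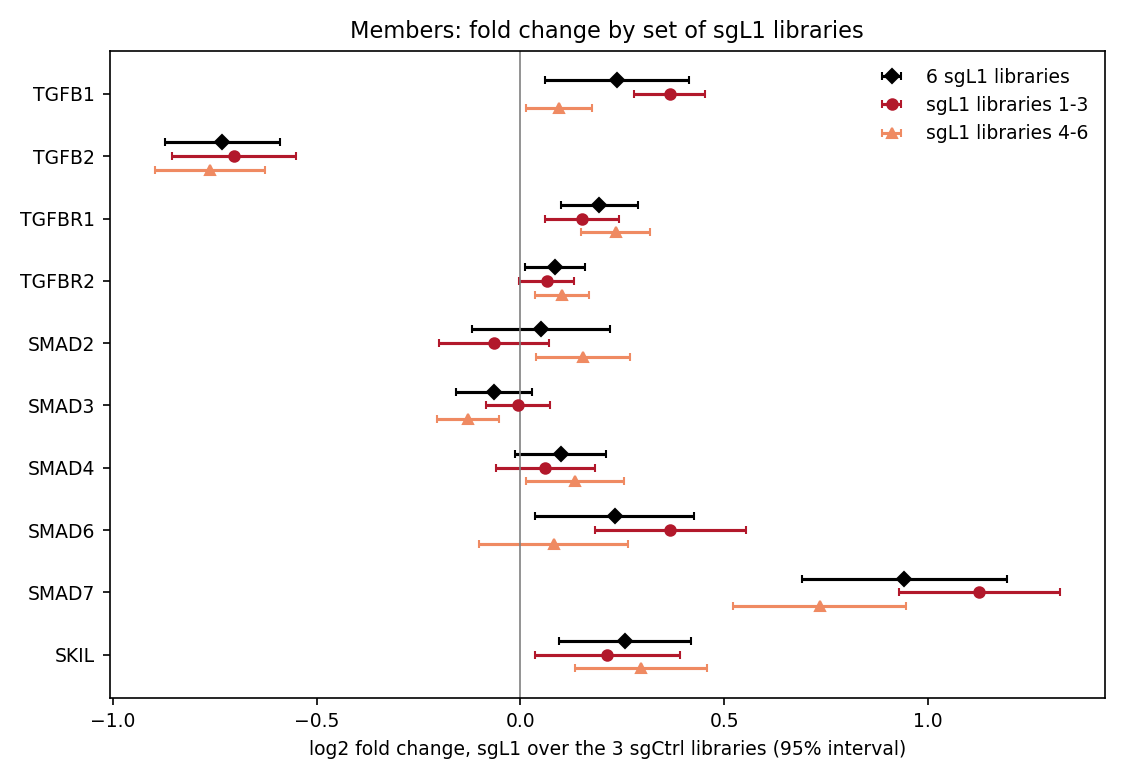
Log2 fold change of each member, sgL1 over sgCtrl, with 95% intervals from edgeR, for all 6 sgL1 libraries (diamonds), libraries 1-3 (circles) and libraries 4-6 (triangles) against the same 3 sgCtrl libraries. TGFB2 (-0.73) and SMAD7 (0.94) stand farthest from 0 in all 3 fits, and TGFB1 and SMAD6 lie higher in libraries 1-3 than in 4-6.

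SMAD-binding letters are shown for the inhibitors that SMADs are known to switch on. The 30-base stretches below come from the RefSeq windows before the starts of SMAD7, SMAD6 and SKIL (GRCh38.p14, each written 5′ to 3′ on the strand of its gene), with CAGAC, its reverse complement or the palindrome GTCTAGAC in capitals.
SMAD7, chr18:48951165-48951194, minus: gccggacgccccCAGACctctgaggttcga
SMAD7, chr18:48951076-48951105, minus: ttcttattttgcCAGACgtctcatgcgggg
SKIL, chr3:170357596-170357625, plus: gacggcggcggcGTCTGcgggaagctgtgt
SMAD6, chr15:66702206-66702235, plus: ccgcggagccgccaaagtGTCTAGACtggc
The 2 SMAD7 matches shown begin 217 and 128 bases before the first of its 3 RefSeq starts, inside what GENCODE 29 annotates as an exon. Another lies 193 bases before the next RefSeq start, in a window with no exonic bases:
SMAD7, chr18:48949509-48949538, minus: actgctcctgcaGTCTGcggttaaaaatta
The palindrome, a SMAD-binding form, was found in the SMAD6 window and in 0.182% of all 35116 windows (64 of them). It was not in the windows of the other 9 members, which says only that these letters are not in those bases. For SMAD7 the 3 RefSeq starts lie 1087, 2719 and 9245 bases downstream of the GENCODE gene start. Bases before that GENCODE start were thus not searched. CAGAC is not particular to the inhibitors: 38.0% of all windows hold it, and windows before TGFB2, TGFBR1 and SMAD3 held it too. Of the 3 genes shown, SMAD7 and SKIL passed the test and SMAD6 did not, and no link between letters and levels was tested.

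Per gene length the members spanned a wide range, and the order was nearly the same in both groups. TGFBR2 was highest, at 111.8 ± 2.78 FPKM in sgL1 and 105.6 ± 1.81 FPKM in sgCtrl, and TGFB1 came next at 56.2 ± 6.16 FPKM in sgL1 and 47.8 ± 0.984 FPKM in sgCtrl. SMAD3 had 25.1 ± 1.46 FPKM in sgL1 and 26.3 ± 0.443 FPKM in sgCtrl, and TGFBR1 had 20.7 ± 0.877 FPKM in sgL1 and 18.1 ± 0.603 FPKM in sgCtrl. TGFB2 stood at 6.43 ± 0.585 FPKM in sgL1 and 10.7 ± 0.354 FPKM in sgCtrl, above SMAD4 with 4.54 ± 0.154 FPKM in sgL1 and 4.24 ± 0.235 FPKM in sgCtrl. Down to this point, and from SMAD4 to SKIL, neighbours in the sgCtrl order kept their ranges over the 9 libraries apart. SKIL had 3.61 ± 0.234 FPKM in sgL1 and 3.02 ± 0.282 FPKM in sgCtrl, and SMAD7 had 4.35 ± 0.708 FPKM in sgL1 and 2.26 ± 0.176 FPKM in sgCtrl. SMAD6 had 2.52 ± 0.314 FPKM in sgL1 and 2.15 ± 0.123 FPKM in sgCtrl, and SMAD2 1.93 ± 0.214 FPKM in sgL1 and 1.87 ± 0.124 FPKM in sgCtrl. From SKIL to SMAD2 the ranges of neighbours overlapped. The ratio of SMAD3 to SMAD7 in FPKM was 5.87 ± 0.726 in sgL1 and 11.7 ± 1.06 in sgCtrl.

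The place of SMAD2 at the bottom of this order depends on the length the authors divided by. The length implied by the deposited values was 36519 bases for SMAD2, against 9151 for SMAD3 and 13178 for SMAD4. For all 10 members it matched the joined exons of every GENCODE 29 transcript to within 0.421%. In counts SMAD2 was above SMAD4, at 70.8 ± 7.83 CPM in sgL1 and 68.4 ± 4.64 CPM in sgCtrl, while SMAD4 had 60.1 ± 2.02 CPM in sgL1 and 56.1 ± 3.19 CPM in sgCtrl. Comparisons of 1 gene between libraries are untouched by this length.

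**Figure D3:**
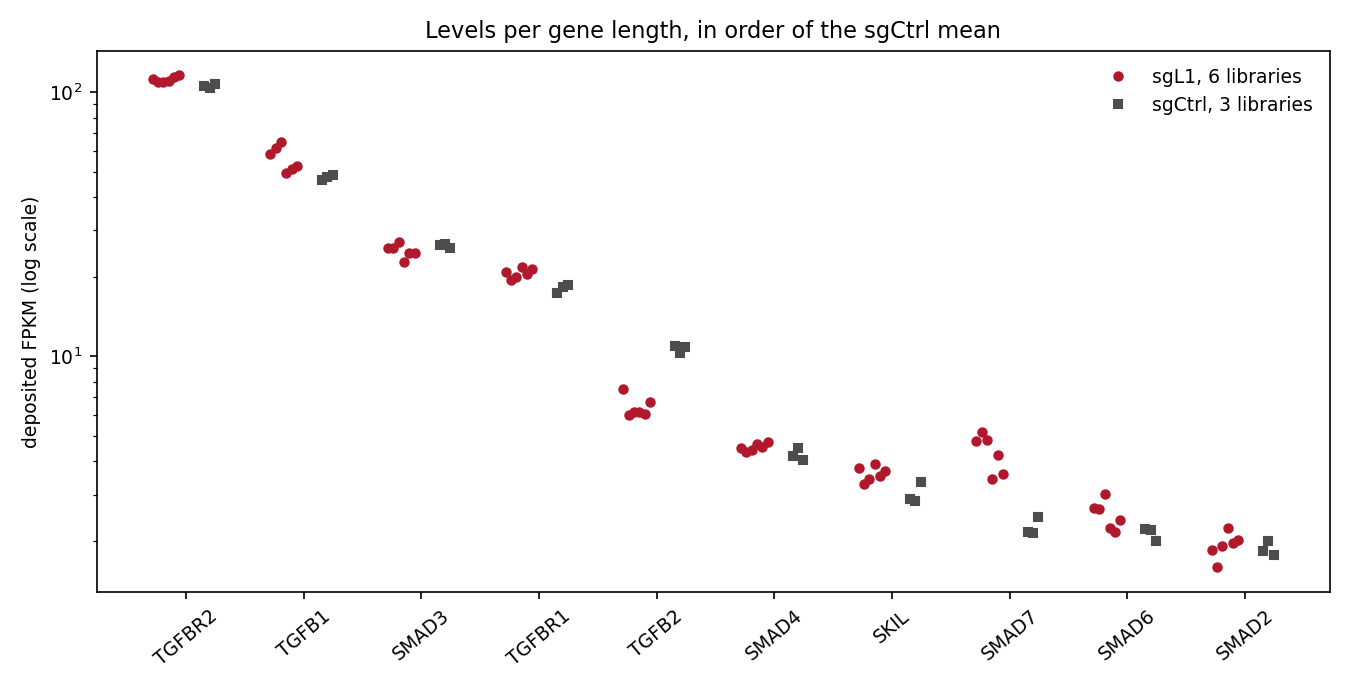
Deposited FPKM of each member (log scale) in the 6 sgL1 libraries (circles) and the 3 sgCtrl libraries (squares), in the order of the sgCtrl mean. TGFBR2 (111.8 FPKM in sgL1, 105.6 in sgCtrl) is at the top and SMAD2 (1.93 FPKM in sgL1, 1.87 in sgCtrl) at the bottom, and SMAD7 lies above SKIL by the sgL1 mean and below it by the sgCtrl mean.

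**Figure D4:**
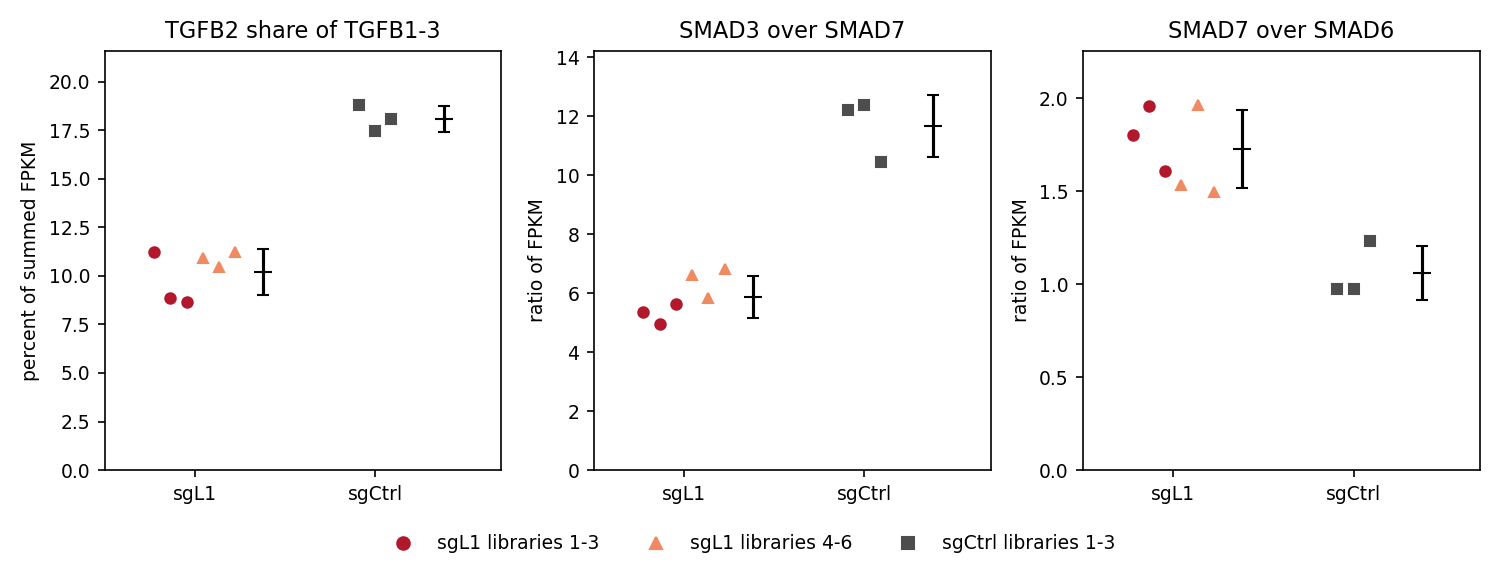
Share of TGFB2 in the summed FPKM of TGFB1, TGFB2 and TGFB3 (left), FPKM of SMAD3 over SMAD7 (middle) and of SMAD7 over SMAD6 (right) by library, with group mean ± SD and axes from 0. All 6 sgL1 libraries lie below the sgCtrl libraries in the first 2 panels and above them in the third.

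The genes whose levels followed TGFB2 most closely were looked for among 9058 protein-coding genes with at least 10 CPM. TFDP1, a partner of E2F factors, had a Pearson correlation with TGFB2 of 0.98 across the 9 libraries. SYNE1, a nuclear envelope protein, and TNFRSF21, a death receptor, had 0.973 and 0.972, and CRIM1, a transmembrane BMP antagonist, and IDS, a lysosomal sulfatase, had 0.972 and 0.970. All 5 were lower in every sgL1 library than in any sgCtrl library, as TGFB2 was, so the difference between groups enters each correlation. Their log2 fold changes ran from -0.15 for TFDP1 to -0.51 for TNFRSF21.

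Around the members, the rest of the pathway was described through 8 lists. Together they held 102 other genes, of which 84 were tested, 27 rose and 6 fell, with a median log2 fold change of 0.08. Beside the 5.52% and 3.98% of all genes called in each direction, these are the counts of hand-picked lists and were not tested as sets. The lists were chosen with earlier results of these data known.

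Among other ligands of the family, INHBA and INHBB, which encode the subunits of activin A and activin B, moved in opposite directions. Of 9 tested genes 2 rose and 1 fell (median 0.18). INHBA rose by 0.75 on the log2 scale, to 43.4 ± 7.25 CPM in sgL1, against 25.9 ± 0.700 CPM in sgCtrl (edgeR adjusted p = 0.00223). INHBB fell by 0.56, to 12.3 ± 2.00 CPM in sgL1, against 18.1 ± 0.967 CPM in sgCtrl (edgeR adjusted p = 7.74e-04). BMP2 rose by 0.34, a call lost without sgCtrl 1 or sgCtrl 3 (edgeR adjusted p up to 0.110), and BMP1, which is a protease despite its name, gave 0.24 (edgeR adjusted p = 0.0613).

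Of 10 tested receptors and co-receptors other than the members, 3 rose and the other 7 did not pass (median 0.11). TGFBR3, the betaglycan that presents TGFB2 to TGFBR2, rose by 0.36, to 52.3 ± 2.41 CPM in sgL1, against 40.9 ± 3.40 CPM in sgCtrl (edgeR adjusted p = 2.34e-04). ACVR2B, an activin receptor, rose by 0.32, and ACVR1C, known as ALK7, by 1.03 at a low level (2.42 ± 0.306 CPM in sgL1 and 1.18 ± 0.213 CPM in sgCtrl), a call lost without sgCtrl 1 (edgeR adjusted p = 0.0530). BMPR1B gave -0.30 (edgeR adjusted p = 0.137).

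Several genes listed under latency and release were higher in sgL1. Of 9 tested, 5 rose and the other 4 did not pass (median 0.20). LTBP3, a latent TGF-beta binding protein, rose by 0.73, to 52.8 ± 5.77 CPM in sgL1, against 31.8 ± 1.29 CPM in sgCtrl (edgeR adjusted p = 2.26e-07). LTBP1 rose by 0.26 and the integrin subunit ITGAV, part of the receptors that release the latent ligand, by 0.24. LTBP2, which stands on the list by its family name and is not known to bind latent TGF-beta, rose by 0.60. The fifth, FURIN, a protease that cuts the TGF-beta precursor, rose by 0.20 and is named after its value was seen. LTBP1 did not pass without sgCtrl 3 (edgeR adjusted p = 0.0780) or on the FPKM scale.

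Other SMADs and their partners held no call: 0 of 10 tested genes passed edgeR's test, beside 9.49% of all genes. With so few genes this 0 is not set apart from that share. Of the 10, 1 had an unadjusted p under 0.05 (21.5% of all genes), and DESeq2 and limma-voom called 0 as well. The BMP-activated SMAD9, SMAD5 and SMAD1 gave 0.41, 0.08 and 0.16 (edgeR adjusted p = 0.133, 0.487 and 0.552), and the acetyltransferase EP300 gave 0.07.

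Genes listed as intracellular inhibitors went both ways. Of 13 tested, 2 rose and 1 fell (median -0.01). The count and median include RNF111 and USP15, which are better known for promoting the signal. Neither passed (edgeR adjusted p = 0.567 and 0.636). PMEPA1, a TGF-beta-induced protein that binds activated SMADs, rose by 1.13, to 41.4 ± 7.04 CPM in sgL1, against 19.0 ± 1.63 CPM in sgCtrl (edgeR adjusted p = 1.92e-04), and the repressor TGIF1 rose by 0.29, a call lost without sgCtrl 2 (edgeR adjusted p = 0.185). NEDD4L, a ubiquitin ligase for activated SMAD2 and SMAD3, fell by 0.39, to 252.0 ± 13.4 CPM in sgL1, against 330.1 ± 8.75 CPM in sgCtrl (edgeR adjusted p = 1.41e-07). SMURF2, a ligase that SMAD7 brings to the receptor, gave -0.13 and did not pass with edgeR (adjusted p = 0.0519), but it was called lower with DESeq2 (adjusted p = 0.0390) and limma-voom (adjusted p = 0.0215), and in 11 of 23 alternatives in all, the 3 other scalings of the counts among them.

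Extracellular antagonists had few expressed members. Of 4 tested, 2 rose and 1 fell (median 0.12). Follistatin, FST, which traps activins, fell by 0.70, to 96.9 ± 4.54 CPM in sgL1, against 157.7 ± 4.80 CPM in sgCtrl (edgeR adjusted p = 4.67e-12). The BMP antagonist noggin, NOG, rose by 0.71, to 73.3 ± 6.51 CPM in sgL1, against 44.7 ± 2.13 CPM in sgCtrl (edgeR adjusted p = 1.20e-08). FSTL1 rose by 0.22 and FSTL3 gave 0.01 (edgeR adjusted p = 0.975).

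On the list of genes that TGF-beta is known to switch on, more rose than fell. Of 26 tested, 14 rose and 3 fell (median 0.32), with PMEPA1 and LTBP2 counted here too. Over all genes 5.52% rose and 3.98% fell. The list was chosen with earlier results of these data known, so its direction is not independent of them. ANGPTL4, a secreted regulator of lipoprotein lipase, rose by 1.78, to 42.1 ± 4.22 CPM in sgL1, against 12.3 ± 2.39 CPM in sgCtrl (edgeR adjusted p = 2.32e-11), the transcription factor BHLHE40 by 1.28 and the cell cycle inhibitor CDKN1A by 0.99. These genes, like several on the list, also answer to other signals, hypoxia among them for ANGPTL4 and BHLHE40, and the part of TGF-beta in their change was not tested. CTGF, a matricellular protein, fell by 0.54, to 428.1 ± 7.20 CPM in sgL1, against 623.0 ± 21.8 CPM in sgCtrl (edgeR adjusted p = 4.77e-12).

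Further targets are named after their values were seen. IL11, a cytokine of bone metastasis, rose by 1.04, to 148.1 ± 16.3 CPM in sgL1, against 72.2 ± 4.46 CPM in sgCtrl (edgeR adjusted p = 9.47e-06). TGFBI rose by 0.91 and JUNB by 0.60. The others that fell were CYR61 (-0.27) and SNAI2 (-0.55), a repressor of epithelial genes, while fibronectin, FN1, gave 0.05 (edgeR adjusted p = 0.502). CTGF and CYR61 are also well-known targets of YAP and TAZ.

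For BMP targets, 2 of 9 tested rose and the other 7 did not pass (median 0.23), and SMAD6, SMAD7 and SMAD9 stand on this list as well as above. ID1, an inhibitor of helix-loop-helix factors, rose by 0.49, to 133.3 ± 6.72 CPM in sgL1, against 94.6 ± 0.431 CPM in sgCtrl (edgeR adjusted p = 1.67e-08). The other gene that rose was SMAD7.

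**Figure D5:**
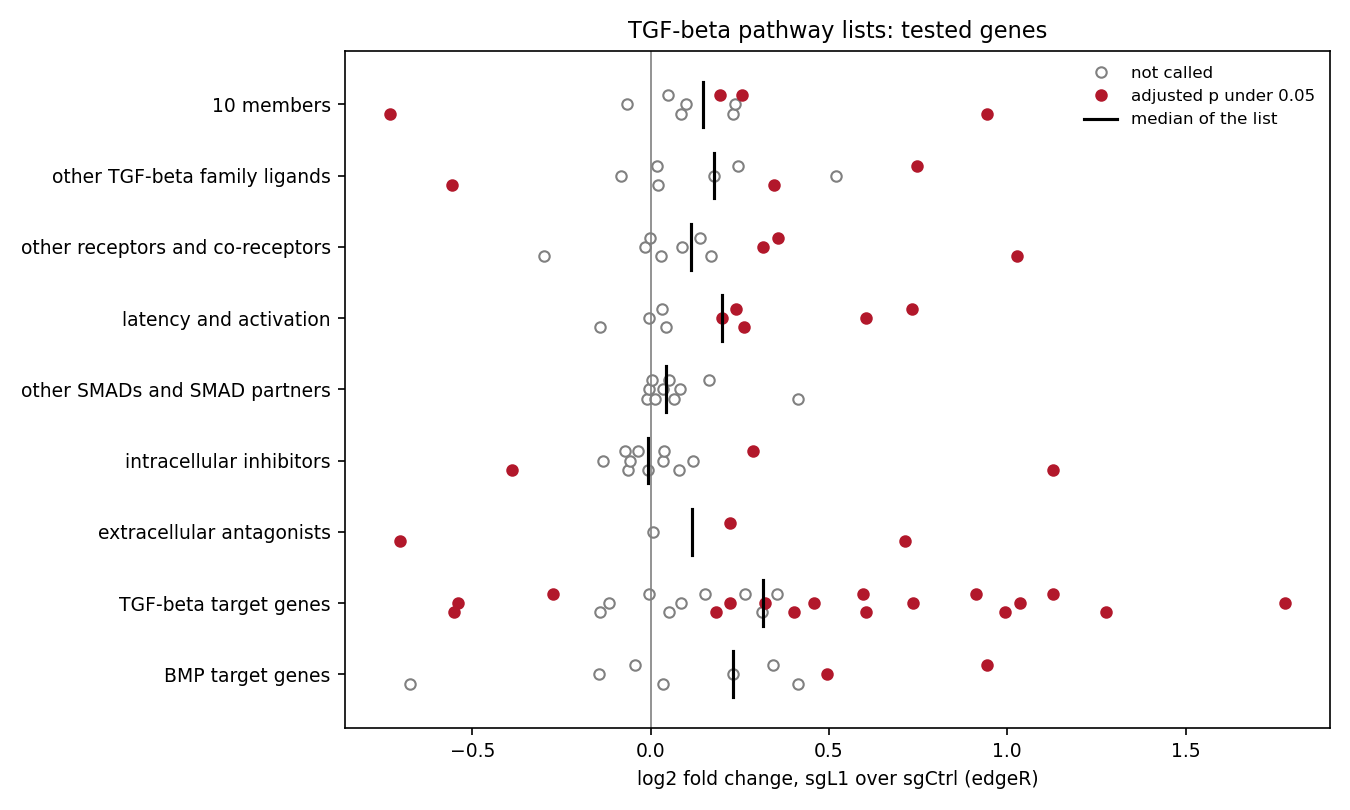
Log2 fold change, sgL1 over sgCtrl, of the tested genes of each list (filled, edgeR adjusted p under 0.05; open, not called), with the median of each list as a vertical bar. The target genes have the highest median (0.32), with 17 of 26 tested genes called. Other SMADs and SMAD partners have 0 of 10, and 9.49% of all genes were called. The lists hold 4 to 26 tested genes, so their counts of calls are not compared. All lists were chosen with earlier results of these data known.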

How the data were processed

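Fastp 0.20.1, STAR 2.7.7a, featureCounts 2.0.0 and the build GRCh38 are named in the submitters' processing notes; their settings, the annotation release and strand use were not given in the sources used. The authors deposited whole-number counts per gene and FPKM values, which match those counts divided by gene length and depth. Of 59362 rows, 627 without a symbol (0.358% to 0.410% of counts) were left out. The members and lists were chosen with earlier results of these data known. The rule for names was all members, UFL1, UFM1, TGFB3, up to 4 genes per list with the smallest adjusted p, and the 5 genes closest to TGFB2.

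All named genes were fitted with edgeR 4.0.16 (R 4.3.3): filterByExpr, TMM scaling, robust quasi-likelihood F tests between sgL1 and sgCtrl, Benjamini-Hochberg adjustment, SE from the F statistic. The fit was also run on data simulated from its own means, library sizes and dispersions, and the result of that run is not given here. The common biological coefficient of variation was 6.53%. No molecular identifiers are named in the sources used, so reads may not be independent molecules. For a gene at 0 the limit is 3 counts, or 0.176 to 0.195 CPM by library, for counting error only. Replicates differed by more than sampling noise (chi-square per gene 2.30 to 9.29, where about 1 marks noise). Alternatives were other scalings, DESeq2 1.42.0, limma 3.58.1 (voom; log2(FPKM + 1) and log2(FPKM + 0.1), which understate changes of low genes), other filters, a threshold of 0.01, the replicate number as a block, single libraries left out, and sgL1 1-3 or 4-6 alone. Gene positions are from GENCODE 29 and promoter windows from RefSeq (all 10 members matched).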

Additional observations from a re-analysis of the deposited data

How the results depend on the processing

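TGFB2 and SMAD7 kept their direction and their call in all 23 alternatives, with log2 fold changes of -0.78 to -0.66 and 0.70 to 1.13. The number of members called, 4, was 3 to 6 with other settings and sets, and 2 to 5 with single libraries left out; 1 to 4 members were called higher there, the lowest without sgCtrl 1. With sgL1 4-6 alone 2 members were called lower, TGFB2 and SMAD3. The count over all genes, 1447, was 856 at an adjusted p under 0.01, 2247 with sgL1 1-3 alone, and 901 to 1758 with single libraries left out (948 without sgCtrl 1, 901 without sgCtrl 2). The count of called genes on the lists, 33, stayed between 28 and 37 over all alternatives. The sign of the log2 fold change of SMAD2 turned with the replicate block (-0.0645) and with sgL1 1-3 alone (-0.0642), and with single libraries left out it ran from -0.000286 to 0.106. That of SMAD5 turned with the block (-0.0171) and with sgL1 1-3 alone (-0.0184). That of FSTL3 turned with limma-voom (-0.00503) and with sgL1 4-6 alone (-0.0305), and ran from -0.0203 to 0.0434 with single libraries left out. The cause was not tested. Same-numbered libraries did not deviate together (correlations of -0.0752 to 0.0116, and 0 of 6 libraries correlated best with their own number). No pairing by number was thus seen, though so few libraries cannot exclude it. With the number as a block, which rests on libraries 1-3 of each group, 1855 genes and 5 members were called. At about 11 CPM in sgCtrl, SMAD7 rests on under 200 counts a library.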

Other observations

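ID3, a BMP target, and CDKN2B, a TGF-beta-induced cell cycle inhibitor, were listed at 0 in all 9 libraries, as were the antagonists GREM1 and CER1. Whether these rows reflect the cells or how the table was made was not tested, so no limit on the level is drawn from them. ID3 stood at 0 beside ID1 at 133.3 ± 6.72 CPM in the 6 sgL1 libraries and 94.6 ± 0.431 CPM in the 3 sgCtrl libraries (mean ± SD), and beside ID2 at 6.87 ± 0.880 CPM in sgL1 and 5.41 ± 0.635 CPM in sgCtrl; ID2 and ID3 are named after their values were seen.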
